A study of Homo sapiens with 8 samples.

Results

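PCNA peaks of *TUBG*-shRNA-MCF10A cells were compared between 2 harvests, 1 h and 2 h past release from synchronization. All peaks on chromosomes 1 to 22 in the 2 lists of these cells were used, 601 of the 4020 peaks in the 4 deposited lists, with 260 at 1 h and 341 at 2 h. MCF10A is an immortalized, non-tumorigenic line of human breast epithelial cells. The *TUBG*-shRNA-MCF10A cells carry a stably transfected short hairpin RNA against γ-tubulin under Zeocin selection. MCF10A cells without the hairpin, at the same 2 times, gave the other lists. All cells were synchronized with a double thymidine block, chromatin was immunoprecipitated with an antibody against PCNA (sc-7907), and libraries of whole-cell lysate were the controls. The 8 libraries are 2 for each of the 4 conditions, but the authors called peaks on both libraries together. Thus, each condition has 1 list, the spread between replicates is unknown, and no test of a difference between times could be made. A stable hairpin lowers γ-tubulin without removing it, the labels name no control hairpin, and the lists hold no measure of γ-tubulin.

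PCNA is the ring-shaped sliding clamp that replication factor C loads onto DNA at the replication fork, where it tethers the DNA polymerases and recruits repair and chromatin factors. γ-Tubulin nucleates microtubules at the centrosome, and a nuclear pool of the protein also exists. Pericentromeres, the regions beside the centromere, are rich in satellite repeats and segmental duplications, and much of their heterochromatin is copied late in S phase. Repeated sequences are hard to assemble and to align reads to, so the reads piled up at 1 annotated position can come from many copies.

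For each peak, the lists give its position, its summit, the authors' fold enrichment (reads at the summit over a local background estimate), and the −log10 of the p-value and q-value. The largest q-value was 0.0496 at 1 h and 0.0462 at 2 h. The shortest peak was 112 bp at 1 h and 115 bp at 2 h. Reads per library are not given in the sources used here, but the reads at the summit could be solved from the fold enrichment and its p-value. They numbered 75 in the median peak at 1 h (quartiles 52.8 and 138) and 83.0 at 2 h (51.0 and 159). Positions are on hg19. No genome or annotation of that build was used here, so peaks are described without genes or sequences. Peaks of 1 region may share repeated sequence, which was not checked.

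A peak was called kept if it shared at least 25% of its own length and 25% of the other peak's length with a peak of the other time. At 1 h, 156 of 260 peaks (60.0%, 95% Wilson interval 53.9 to 65.8) were kept, and 104 were listed at 1 h only. At 2 h, 154 of 341 peaks (45.2%, 40.0 to 50.5) were kept, and 187 were listed at 2 h only. Thus, most 1 h positions stayed in the list, and most 2 h positions were not in the 1 h list. Kept peaks come in pairs, so their numbers at the 2 times are nearly equal. The lower kept share at 2 h therefore restates the longer 2 h list. Intervals here and below cover counting error only and treat neighbouring peaks as independent, which they are not. In MCF10A cells, the same criterion kept 375 of 475 peaks at 1 h (78.9%) and 378 of 2312 at 2 h (16.3%). The MCF10A peaks at 2 h were narrower, with a shortest peak of 47 bp and a median width of 77 bp (quartiles 54 and 132), against 168 bp (131 and 226) at 1 h. The part of these widths in the MCF10A shares was not tested.

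The kept peaks formed 158 pairs, since 2 peaks at 1 h and 4 peaks at 2 h had 2 partners each. Few peaks lay near the criterion. The pairs just inside it shared 25.6%, 30.1% and 30.7% of the longer peak. The 5 overlapping pairs outside it shared 12.4% to 23.6% of one of their peaks, and 3 of them were in 1 region of chromosome 16.

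The kept peaks were mostly pericentromeric, defined as a summit within 5 Mb of the centromere gap of the assembly. At 1 h, 220 of 260 peaks (84.6%, 79.7 to 88.5) were pericentromeric, and at 2 h, 301 of 341 (88.3%, 84.4 to 91.3). The arms held 40 peaks at each time, a ratio of 1.00 (95% exact binomial interval 0.629 to 1.59), and the pericentromeres had a ratio of 1.37 (1.15 to 1.64). Hence, the list at 2 h was longer by its pericentromeric peaks. In MCF10A cells, the ratio was 4.53 (4.07 to 5.06) in the pericentromeres and 6.84 (5.30 to 8.94) on the arms.

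Among pericentromeric peaks, 148 of 220 at 1 h were kept (67.3%, 60.8 to 73.1) and 146 of 301 at 2 h (48.5%, 42.9 to 54.1). On the arms, 8 of 40 were kept at each time (20.0%, 10.5 to 34.8). The arm peaks were thus equal in number but mostly at other positions, 32 listed at 1 h only and another 32 at 2 h only. In MCF10A cells, 35 of 69 arm peaks at 1 h (50.7%, 39.2 to 62.2) were kept, in a 2 h list with many more peaks. By class, 94.9% of the kept peaks at 1 h (90.2 to 97.4) were pericentromeric, against 69.2% of the peaks at 1 h only (59.8 to 77.3) and 82.9% of those at 2 h only (76.8 to 87.6).

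Within 100 kb of a gap, the lists held 89 peaks at 1 h (34.2% of the list, 28.7 to 40.2) and 147 at 2 h (43.1%, 38 to 48.4), and these intervals overlapped. Of these, 70 were kept at 1 h (78.7%, 69.0 to 85.9) and 68 at 2 h (46.3%, 38.4 to 54.3). The share kept near the gaps at 2 h was close to the 45.2% of the whole 2 h list. The short-arm side of the gap held 75 of the 148 kept pericentromeric peaks at 1 h (50.7%, 42.7 to 58.6), 45 of the 72 at 1 h only (62.5%, 51 to 72.8) and 91 of the 155 at 2 h only (58.7%, 50.8 to 66.2). These intervals overlapped.

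Chromosomes 2, 4, 10 and 16 held 203 peaks at 1 h (78.1% of the list, 72.7 to 82.7) and 259 at 2 h (76.0%, 71.1 to 80.2). Each of the 4 had more peaks at 2 h. Chromosome 16 had 61 at 1 h and 72 at 2 h, and 80.3% of its 1 h peaks (68.7 to 88.4) were kept. Chromosome 4 had 62 and 77, with 74.2% kept (62.1 to 83.4). Chromosome 2 had 43 and 66, with 62.8% kept (47.9 to 75.6), and chromosome 10 had 37 and 44, with 56.8% kept (40.9 to 71.3). The intervals of all 4 chromosomes overlapped each other. On the other autosomes without chromosome 8, only 9 of 50 peaks at 1 h (18%, 9.77 to 30.8) and 9 of 47 at 2 h (19.1%, 10.4 to 32.5) were kept.

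Chromosome 8 had the largest difference in peak number between the times. It held 7 peaks in the earlier list and 35 in the later one, which is a ratio of 5.00 (exact binomial interval 2.19 to 13.3), against 1.21 (1.02 to 1.43) on the other autosomes. Its share of the list was 2.69% at 1 h and 10.3% at 2 h. Of its 35 peaks at 2 h, 4 were kept and 31 were listed at 2 h only. The pericentromere of chromosome 8 had 6 peaks at 1 h and 27 at 2 h, and its arms had 1 and 8. In MCF10A cells, the ratio on chromosome 8, with 27 and 153 peaks, was 5.67 (3.75 to 8.88), against 4.82 (4.35 to 5.35) on the other autosomes. Chromosome 8 was singled out after its values were seen. Of the 22 autosomes, 13 had more peaks at 2 h, 8 had fewer and 1 had as many. Those with fewer had 6 peaks or less at 1 h, such as chromosome 20, with 5 and 1, and chromosome 3, with 4 and 1.

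**Figure D1:**
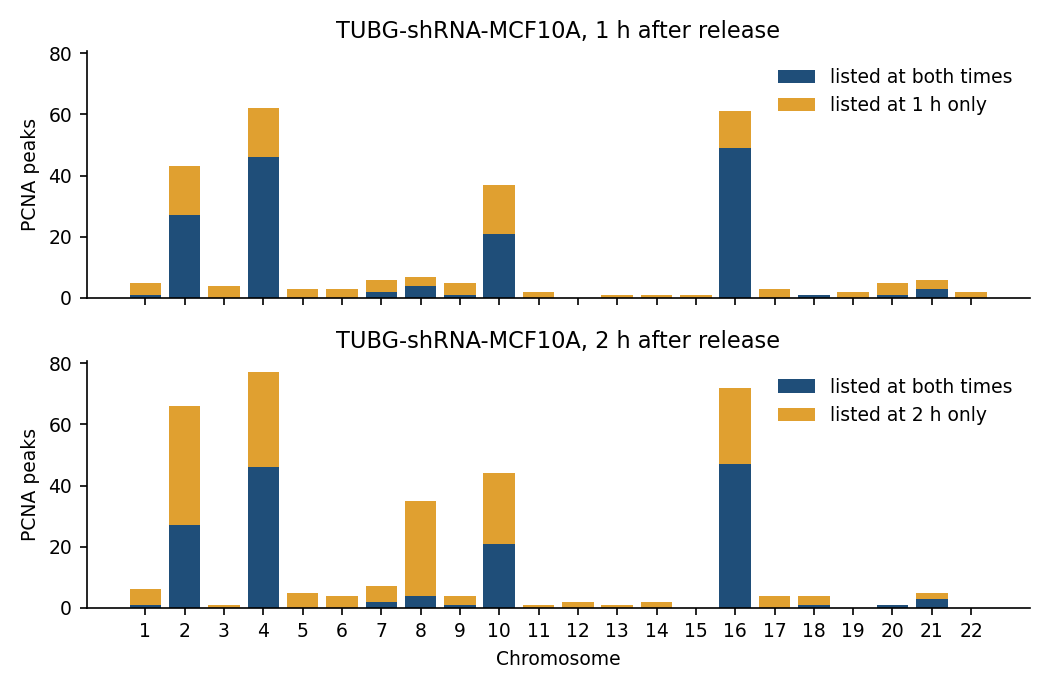
Number of PCNA peaks on each autosome in *TUBG*-shRNA-MCF10A cells at 1 and 2 h, with bars split into peaks listed at both times and peaks listed at 1 time only. Chromosomes 2, 4, 10 and 16 hold most peaks at both times, and chromosome 8 has 7 peaks at 1 h and 35 at 2 h.

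Peaks were densely packed. When the peaks of both times were chained wherever neighbours lay within 10 kb, the 601 peaks fell into 115 regions. Of these, 31 held peaks of both times, 44 only of 1 h and 40 only of 2 h. The 10 regions with 10 or more peaks held 441 peaks (73.4%), and each of the 10 had more peaks at 2 h than at 1 h. By contrast, 77 regions were single peaks, 40 at 1 h and 37 at 2 h. Of the 66 regions on the arms, 7 held peaks of both times, and of the 49 pericentromeric regions 24 did.

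The largest region, chr16:46385886-46435449, spanned 49564 bp beside the gap of chromosome 16 and held 51 peaks at 1 h and 68 at 2 h. Its peaks covered 9649 bp (19.5%) at 1 h and 18227 bp (36.8%) at 2 h. The median spacing between neighbouring summits was 676 bp at 1 h and 498 bp at 2 h, and the median width was 160 and 233 bp. Peaks were therefore more numerous, closer together and wider in the 2 h list. It kept 47 of the 51 peaks at 1 h, and 23 of its 68 peaks at 2 h were listed at that time only.

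The next regions were on chromosomes 4 and 10. Region chr4:49094061-49158609 held 41 peaks at 1 h and 52 at 2 h, which covered 12.1% and 15.9% of it. Region chr10:42355042-42396992 held 28 and 34 peaks, and chr4:49634834-49659729, which ends next to the gap, held 19 and 23. On chromosome 2, region chr2:91595178-91616021 held 12 and 17 peaks, and its median fold enrichment was 2.61 at 1 h and 3.69 at 2 h. These 5 regions were alike in having between 1.21 and 1.42 times as many peaks at 2 h as at 1 h.

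In 4 further regions of 10 or more peaks, the ratio was larger, between 1.75 and 4.67. Region chr2:92291436-92326087, next to the gap, held 6 peaks at 1 h and 17 at 2 h, and 12 of the 17 were listed at 2 h only. On both sides of the gap of chromosome 8, chr8:43821025-43838726 held 3 and 12 peaks and chr8:46839057-46855504 held 3 and 14. In these 3 regions, the median local background was between 65.9 and 91.9 reads at either time. The fourth, chr2:90371776-90392989, held 8 and 14 peaks on median backgrounds of 19.5 and 14.8 reads. The largest region of chromosome 16, with a ratio of 1.33, had backgrounds of 123 and 104. The relation of the background to the ratio was not tested. Over all 115 regions, 57 had more peaks at 2 h and 49 had fewer, 40 of the latter being single 1 h peaks. Of the 38 regions of 2 or more peaks, 20 had more and 9 had fewer, among them chr21:10837803-10853750, with 4 and 2, and chr16:33887621-33899976, with 4 and 1. The regions of this paragraph were chosen after their values were seen.

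**Figure D2:**
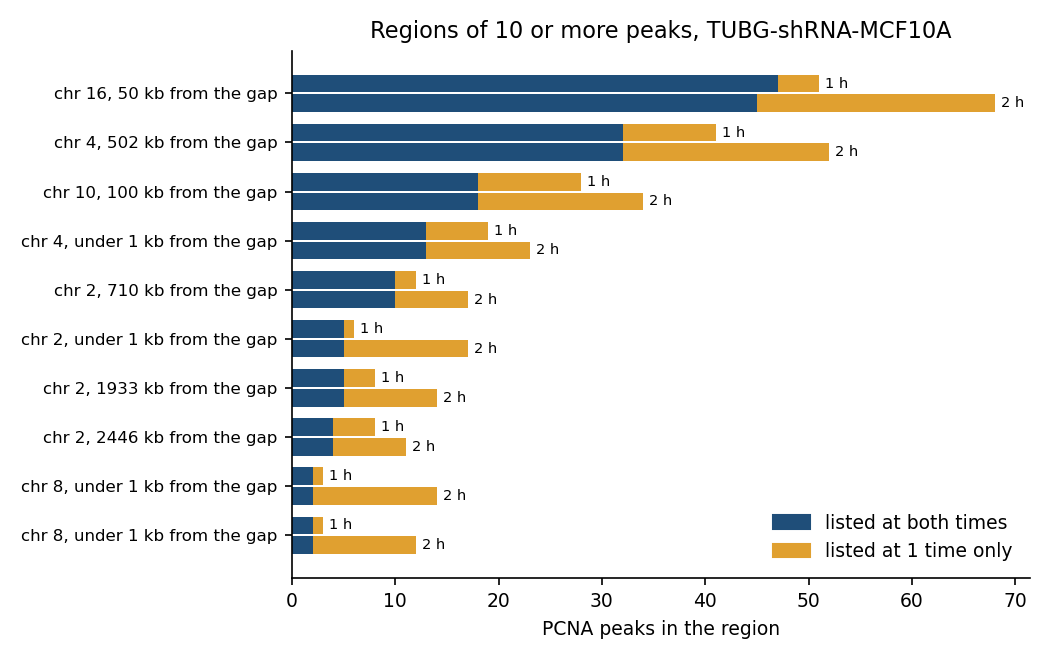
PCNA peaks in the 10 regions with 10 or more peaks, in *TUBG*-shRNA-MCF10A cells at 1 h (upper bar) and 2 h (lower bar), split into peaks listed at both times and at 1 time only, with the distance of each region from the centromere gap. Every region has a longer bar at 2 h, from 51 and 68 peaks on chromosome 16 down to 3 and 12 on chromosome 8.

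The share of kept peaks differed between these regions and the rest, in part because of how regions were made. A kept peak and its partner overlap, so they always fall in 1 region. The 77 single-peak regions, 40 at 1 h and 37 at 2 h, could therefore hold no kept peak. All of them count as outside the 10 regions. Inside the 10 regions, 138 of 179 peaks at 1 h (77.1%, 70.4 to 82.6) and 136 of 262 at 2 h (51.9%, 45.9 to 57.9) were kept. Elsewhere, 18 of 81 at 1 h (22.2%, 14.5 to 32.4) and 18 of 79 at 2 h (22.8%, 14.9 to 33.2) were. Outside the dense regions, the kept shares of the 2 times lay within each other's intervals. Without the 5 regions with the most peaks, the kept share was 33.0% (1 h) and 24.5% (2 h). Where peaks cover more of a region, peaks of the other time have more to overlap with, and the part of this coverage in the kept shares was not tested.

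A peak was called clustered if another peak of its own list lay within 10 kb. Of the kept peaks, 144 of 156 at 1 h (92.3%, 87.0 to 95.5) and 144 of 154 at 2 h (93.5%, 88.5 to 96.4) were clustered. Of the peaks at 1 h only, 60 of 104 (57.7%, 48.1 to 66.7) were, and of those at 2 h only, 148 of 187 (79.1%, 72.8 to 84.4). The order of the classes was the same as for pericentromeric position. Position and clustering are hard to separate here, because most clustered peaks were pericentromeric, 200 of 204 (1 h) and 284 of 292 (2 h). Among the few isolated pericentromeric peaks, 7 of 20 were kept at 1 h (35%, 18.1 to 56.7) and 4 of 17 at 2 h (23.5%, 9.56 to 47.3).

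Many peaks listed at 1 time only lay close to a peak of the other time. Of the 187 peaks at 2 h only, 85 lay within 1 kb of a 1 h peak and 139 (74.3%, 67.6 to 80.1) within 10 kb, at a median distance of 1211 bp. Of the 104 peaks found at 1 h alone, 36 lay within 1 kb of a 2 h peak and 52 (50%, 40.6 to 59.4) within 10 kb, at a median of 10293 bp. At 10 kb, the positions at 2 h only were thus more often beside an earlier peak than those at 1 h only were beside a later one.

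Within the pericentromeres, 139 of 155 peaks at 2 h only (89.7%, 83.9 to 93.5) and 51 of 72 at 1 h only (70.8%, 59.5 to 80.1) had a peak of the other time within 10 kb. Within 1 kb, the shares were 85 of 155 (54.8%, 47.0 to 62.5) and 36 of 72 (50%, 38.7 to 61.3), and the median distances were 859 and 1022 bp, so at the shorter distance the intervals overlapped. On the arms, 1 of 32 peaks at 1 h only and 0 of 32 at 2 h only had a neighbour within 10 kb, which for the latter allows up to 10.7% (Wilson). Apart from the 8 kept pairs, arm peaks of the 2 times were therefore at separate positions.

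**Figure D3:**
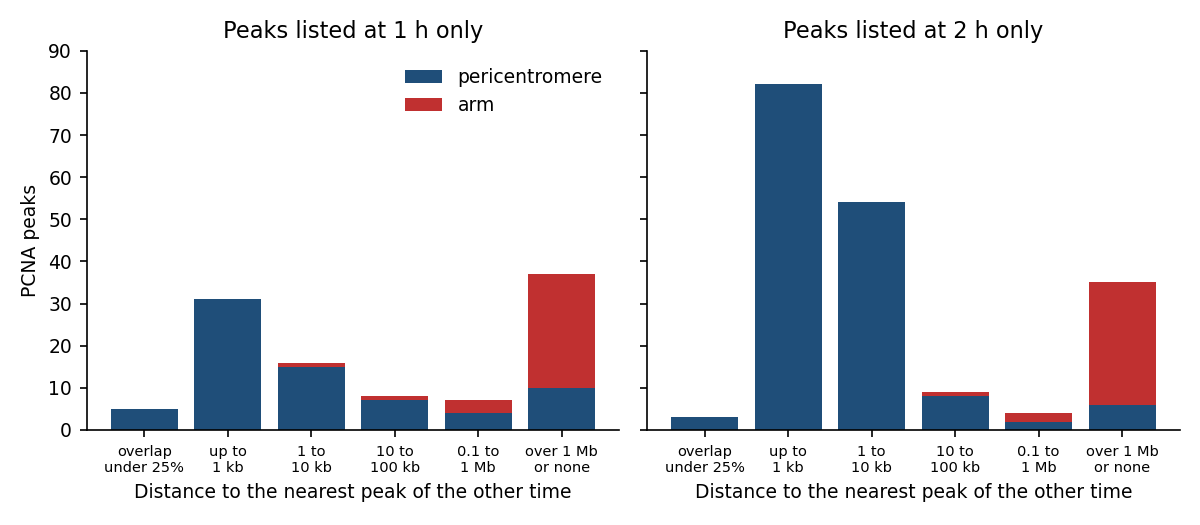
Number of peaks listed at 1 time only by distance to the nearest peak of the other time, for pericentromeric and arm positions. Pericentromeric peaks gather at distances up to 10 kb, where 139 of 155 at 2 h only and 51 of 72 at 1 h only lie, whereas on the arms 1 of 32 and 0 of 32 do.

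In most of the 158 kept pairs, the summits lay within 50 bp of each other. Pairs were chosen by overlap, which already limits how far apart their summits can lie. The distance is therefore not independent of the criterion. The median distance between the summits was 9 bp (quartiles 3 and 39.8), and 86 pairs had summits within 10 bp and 125 within 50 bp. The 2 h summit was at the higher coordinate in 76 pairs, at the lower in 76 and at the same base in 6, so no direction prevailed. Of the 16 pairs with summits more than 100 bp apart, 11 were on chromosome 16. The widest shifts were in its largest region, where the 1 h peak chr16:46434334-46434498 (165 bp) lay in a 2 h peak of 549 bp whose summit was 395 bp away. These shifts were picked after their values were seen.

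Kept peaks tended to be wider at 2 h. The median ratio of the widths, 2 h over 1 h, was 1.10 (quartiles 0.935 and 1.36), and 99 of 158 pairs (62.7%, 54.9 to 69.8) were wider at 2 h. On chromosome 16 this was 39 of 50 pairs, and on chromosomes 2, 4 and 10 it was 15 of 27, 26 of 47 and 11 of 21. On chromosome 8 it was 4 of 4. The difference was not particular to kept peaks, since the median width of the whole list was 146 bp at 1 h and 165 bp at 2 h. More than 1.5 times the width was reached by 30 pairs at 2 h and by 14 at 1 h. The 1 h peak lay wholly inside the 2 h peak in 65 pairs, and the reverse held in 24.

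The fold enrichment of kept pairs was higher at 2 h in 121 of 158 (76.6%, 69.4 to 82.5), with a median ratio of 1.12 (quartiles 1.01 and 1.24). The reads behind it were fewer. The ratio of summit reads had a median of 0.918 (0.845 and 0.981), with more reads at 2 h in 22 pairs, and that of the local background 0.823 (0.727 and 0.892), with a higher background at 2 h in 17. The higher fold enrichment therefore came with a lower background and not with more reads at the summit. The number of sequenced reads at each time is not given, and depth and occupancy cannot be told apart from these ratios.

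**Figure D4:**
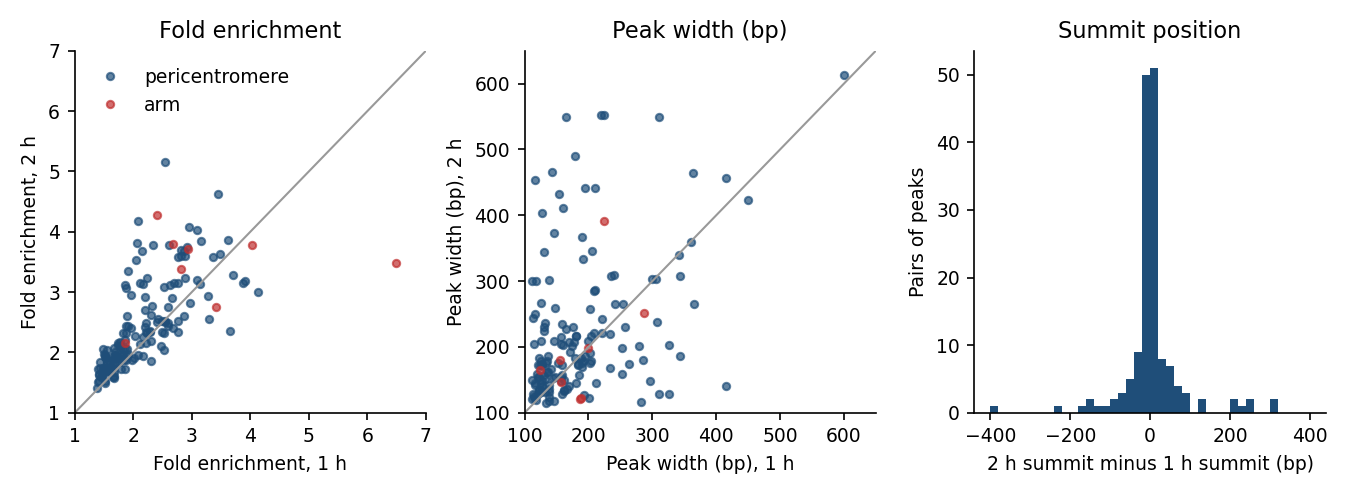
Kept pairs of PCNA peaks in *TUBG*-shRNA-MCF10A cells, each point being 1 of 158 pairs, plotted by their values at 1 and 2 h and by the distance between their summits. Most pairs lie above the line of equal fold enrichment, 121 of 158, and 86 pairs have summits within 10 bp.

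Peaks listed at 1 time only were narrower. The median width was 162 bp (quartiles 132 and 208) for kept peaks at 1 h and 132 bp (115 and 156) for peaks at 1 h only. At 2 h it was 180 bp (148 and 244) for kept peaks and 146 bp (123 and 196) for peaks at 2 h only. Peaks wider than 300 bp were kept in 14 of 14 cases at 1 h and in 27 of 38 at 2 h. Width enters the overlap criterion, so it is not independent of the classes. The summit lay in the central 50% of the peak in 69.2% of kept peaks at 1 h (61.6 to 75.9), 68.3% at 1 h only (58.8 to 76.4), 74.7% of kept peaks at 2 h (67.3 to 80.9) and 69.5% at 2 h only (62.6 to 75.7). These intervals overlapped as well.

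At 1 h, the peaks with the highest fold enrichment were the ones not found again. The median fold enrichment was 2.06 (quartiles 1.67 and 2.61) for kept peaks and 3 (2.25 and 4.78) for peaks at 1 h only. Kept were 75 of 90 peaks with a fold enrichment of up to 2 (83.3%, 74.3 to 89.6), 63 of 100 between 2 and 3 (63.0%, 53.2 to 71.8), 17 of 45 between 3 and 5 (37.8%, 25.1 to 52.4) and 1 of 25 above 5 (4%, 0.710 to 19.5). The kept share was thus lower at each step of enrichment.

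At 2 h this order was absent below a fold enrichment of 5. The kept shares were 55 of 113 (48.7%, 39.7 to 57.8), 56 of 131 (42.7%, 34.6 to 51.3) and 42 of 85 (49.4%, 39.0 to 59.8) in the same steps, and 1 of 12 above 5 (8.33%, 1.49 to 35.4). The medians were 2.32 (1.88 and 3.12) for kept peaks and 2.45 (1.92 and 3.14) for peaks at 2 h only.

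The fold enrichment was high where few reads were present. Kept peaks at 1 h had a median of 109.5 summit reads on a local background of 50.9 reads, and peaks at 1 h only had 53.0 on 17.4. On the arms, the 32 peaks at 1 h only had a median of 31.5 reads on 4.97 and a fold enrichment of 5.22 (3.44 and 6.66), and the 32 at 2 h only had 34 reads on 10.6 and 3.08 (2.62 and 5.10). The arm peaks of both times thus had few reads. Their part in the kept shares was not tested. The −log10 q-value takes the number of reads into account. In its steps up to 2, 2 to 5, 5 to 10 and above 10, the kept shares of all 1 h peaks were 71.4%, 55.4%, 57.6% and 67.3%. These did not fall from step to step as those by fold enrichment did. Pericentromeric peaks at 1 h gave 70.0%, 61.4%, 63.0% and 88.9% in the same steps. Arm peaks at 1 h gave 1 of 1, 0 of 9, 2 of 11 and 5 of 19. In the whole 2 h list, the shares were 14.3% (4.01 to 39.9), 39.6%, 41.2% and 61.1% (51.0 to 70.2), higher at each step. Above 10, kept were 32 of 36 pericentromeric peaks at 1 h (88.9%, 74.7 to 95.6) and 5 of 19 arm peaks (26.3%, 11.8 to 48.8). Pericentromere and arm therefore also differed among the strongest peaks of the 1 h list. At 2 h, these counts were 53 of 85 (62.4%, 51.7 to 71.9) and 5 of 10 (50%, 23.7 to 76.3), and the 2 intervals overlapped.

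**Figure D5:**
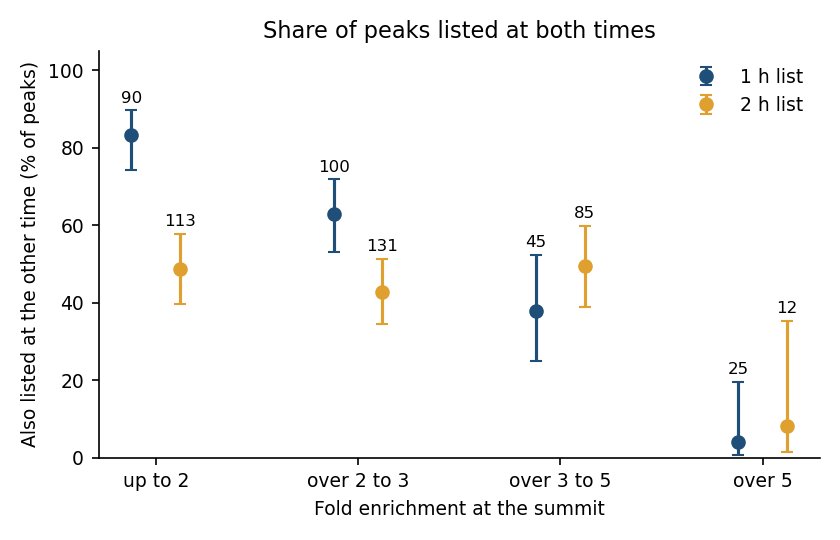
Percentage of peaks kept by step of the authors' fold enrichment in *TUBG*-shRNA-MCF10A cells at 1 and 2 h, with 95% Wilson intervals as error bars. At 1 h the percentage is 83.3% in the lowest step and 4% in the highest, while at 2 h the steps up to 5 lie between 42.7% and 49.4%.

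The strongest kept pair, by the smaller of its −log10 q-values, was on chromosome 2, at chr2:89869791-89870000 (1 h) and chr2:89869751-89870036 (2 h). Its fold enrichment was 3.08 at 1 h and 4.04 at 2 h, its −log10 q-value was 18.7 and 24.2, and its summits were 6 bp apart. It had 117 summit reads at 1 h and 104 at 2 h on backgrounds of 37.3 and 25. Of the 5 strongest pairs, 3 lay in the largest region of chromosome 16. One of these, chr16:46407656-46407800 at 1 h and chr16:46407652-46407804 at 2 h, had its summit at the same base, with 217 and 210 reads and fold enrichments of 2.04 and 2.28.

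The 8 kept pairs on the arms were on chromosomes 1, 2, 4, 7, 9 and 10. The strongest, chr2:109815847-109816003, had a fold enrichment of 3.41 at 1 h and 2.75 at 2 h and lay less than 100 bp from another kept pair, chr2:109816053-109816339. Fold enrichments on the arms went both ways. On chromosome 7, chr7:15589407-15589593 had 6.49 at 1 h and 3.49 at 2 h, with 27 and 21 summit reads. On chromosome 10, chr10:10149936-10150059 had 2.40 and 4.29, with 69 and 78 reads, and on chromosome 9, chr9:72653058-72653281 had 2.68 and 3.80, with 95 reads at each time.

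Of the 5 strongest peaks listed at 1 h only, 4 were on arms. Peak chr3:106697224-106697344 had the highest −log10 q-value, 22.7, with a fold enrichment of 7.08 and 53 reads on a background of 6.63, and the nearest 2 h peak was 4577 kb away. Peak chr7:24044052-24044196 had a fold enrichment of 8.36 with 42 reads, chr4:150865683-150865801 had 7.78 with 39 reads, and chr5:108338633-108338847 had 10.5 with 27 reads. The fifth, chr20:29822927-29823056, was pericentromeric, with a fold enrichment of 5.92 and a 2 h peak 6.38 kb away. Among weaker peaks, picked after their values were seen, 3 neighbours in chr16:30933171-30934472 had fold enrichments of 5.37, 7.60 and 4.41 with 12, 20 and 18 reads, and the nearest 2 h peak was at least 2953 kb from each.

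Of the 5 strongest peaks listed at 2 h only, 4 were pericentromeric. Of these, 3 lay in the region next to the gap of chromosome 2, chr2:92291436-92291563, chr2:92319858-92320003 and chr2:92324072-92324190. Their fold enrichments were 2.54, 2.51 and 2.45, with 167, 165 and 165 reads, and the nearest 1 h peak was 18.5, 0.415 and 0.902 kb away. They combined a modest enrichment with many reads, unlike the strongest peaks at 1 h only. Peak chr4:49094405-49094548 had a fold enrichment of 4.12 and lay 0.255 kb from a 1 h peak. On the arms, chr6:102782533-102782651 had 5.88 with 45 reads, chr8:108905474-108905596 had 5.95 with 41 reads, and chr14:43964709-43964839 had 3.84 with 61 reads. The 2 h list also had 4 peaks within 25 kb of the first base of a chromosome, 3 on chromosome 5 and 1 on chromosome 7, and the 1 h list had 0, a pattern noticed after the values were seen.

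The classes were set beside the MCF10A lists, using an overlap of at least 1 bp because of the narrow MCF10A peaks at 2 h. All 148 kept pericentromeric peaks at 1 h overlapped an MCF10A peak at 2 h, as did 66 of 72 pericentromeric peaks at 1 h only (91.7%, 83.0 to 96.1) and 149 of 155 at 2 h only (96.1%, 91.8 to 98.2). Over all peaks, 224 of 260 at 1 h (86.2%) and 315 of 341 at 2 h (92.4%) did so, and the MCF10A list at 2 h held 1840 pericentromeric peaks. Pericentromeric peaks of each class were therefore mostly listed in cells without the hairpin as well, as were most peaks of both lists. On the arms, 27 of 32 peaks at 1 h only (84.4%, 68.2 to 93.1) and 18 of 32 at 2 h only (56.2%, 39.3 to 71.8) overlapped no MCF10A peak of either time, against 2 of the 8 kept peaks. Over all peaks, 35 of 260 at 1 h (13.5%) and 26 of 341 at 2 h (7.62%) overlapped none. The arm positions listed once in *TUBG*-shRNA-MCF10A cells were thus often listed in no other condition. The peaks at 2 h only overlapped an MCF10A peak of 1 h in 70 of 155 pericentromeric cases (45.2%, 37.5 to 53.0), against 113 of 146 kept pericentromeric peaks at 2 h (77.4%, 70.0 to 83.4) and 192 of all 341 peaks at 2 h (56.3%, 51.0 to 61.5). Of these 70, 3 also shared at least 1 bp with a *TUBG*-shRNA-MCF10A peak at 1 h, against 3 of all 155 pericentromeric peaks at 2 h only. The class leaves out peaks that meet the overlap criterion with a 1 h peak, so its definition sets a low count here.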

How the data were processed

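PCNA ChIP-seq was analysed in *TUBG*-shRNA-MCF10A cells, 1 h and 2 h past release, with MCF10A cells for comparison, and conditions were taken from the sample labels. The submitters' processing notes name Bowtie 1.0.0, MACS2 2.1.1, bedtools 2.17.0 and hg19. Alignment settings, including the treatment of reads with several positions, are not given in the sources used here. The authors called peaks on the 2 pooled libraries of a condition against whole-cell lysate and deposited for each peak a fold enrichment over background (a ratio) and, on the −log10 scale, a p-value and a q-value. The deposited score was not used.

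Peaks on chromosomes 1 to 22 were classed by overlap with Python 3.11.15, using pandas 2.3.3, numpy 2.4.6, matplotlib 3.10.9 and scipy 1.17.1. Chromosome X and other sequences were left out of the classes. Summit reads and background were solved from the fold enrichment (MACS2 pseudocount 1) and the Poisson p-value to within 0.0003 of the deposited −log10 p-value, and a whole number was found for each of these peaks. A peak that is not listed may have failed the threshold for lack of reads, so its absence from the cells is not shown. Centromere gaps of hg19, with the adjoining heterochromatin gaps of chromosomes 1, 9 and 16, were entered by hand from knowledge of the assembly, and 0 of 3388 autosomal peaks of the 4 lists lay in a gap. The steps were tested on simulated data. Shares carry 95% Wilson intervals and ratios of peak numbers 95% exact binomial intervals.

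Named are the 5 strongest kept pairs, the 5 strongest peaks of each time only, the 3 strongest of each class on arms, the 5 regions with the most peaks and the peaks near the overlap criterion; some are given only as part of a count or range. Other named items were chosen after their values were seen, as stated beside them, and the 8 kept arm pairs were listed as a whole. Peaks, classes and lists were chosen with earlier results of these data known. The alternatives were other overlap criteria, stricter q-values, a minimum fold enrichment, all sequences, joined peaks, other distances for pericentromere and cluster, and leaving out the largest regions.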

Additional observations from a re-analysis of the deposited data

Results flagged for a closer look

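Peaks on chromosome X were outside the comparison. The *TUBG*-shRNA-MCF10A lists held 10 PCNA peaks there at 1 h and 28 at 2 h. The lists pool the replicates, so this difference was not tested. The same overlap criterion kept 5 of them in each list, which was 50% at 1 h (23.7 to 76.3, Wilson) and 17.9% at 2 h (7.88 to 35.6). The median fold enrichment was 2.41 at 1 h and 2.20 at 2 h.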

How the results depend on the processing

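No paired analysis was possible because the replicates of a condition share 1 list, and for the same reason no replicate could be left out. Across 16 alternative settings, 117 of 153 values stayed inside the interval of the value reported and 36 did not. Kept peaks were more often pericentromeric than peaks at 1 h only in 13 of the 13 settings that apply, more often clustered in 14 of 14 and wider in 12 of 12. These counts cover direction only. With joined peaks and without the 5 regions with the most peaks, the intervals of the pericentromeric shares overlapped, as did those of the clustered shares. For the widths, the intervals overlapped with a minimum fold enrichment of 2 and without these regions. The kept share was higher in the 1 h list in 11 of 12, an order that the shorter 1 h list largely sets. The exception was joining peaks within 1 kb, with 31.9% at 1 h and 32.5% at 2 h. The kept shares at 1 and 2 h were 50% and 38.1% with an overlap of 50% of both peaks, 73.8% and 70.1% with peaks within 1 kb of each other, 51.7% and 32.9% with q-values of at most 1e-05 in both lists, 45.3% and 33.3% with a minimum fold enrichment of 2, and 33.0% and 24.5% without the 5 regions with the most peaks, an alternative added after seeing the data. The pericentromeric share of kept peaks at 1 h was 86.8% with joined peaks and 77.8% without these regions. For peaks at 1 h only it was 52.9% within 1 kb, 59.6% with q-values of at most 1e-05 in the classed list and 56.2% without the regions. For peaks at 2 h only it was 68.6% within 1 kb, 89.7% with q-values of at most 1e-05 in both lists, 73.6% joined and 71.2% without the regions. The clustered share of kept peaks at 1 h was 77.4% joined, 71.2% with a cluster distance of 1 kb and 66.7% without the regions. For peaks at 1 h only it was 35.3% within 1 kb, 45.6% with q-values of at most 1e-05 in the classed list, 25% with the 1 kb distance and 39.7% without the regions. For peaks at 2 h only it was 61.8% within 1 kb and likewise 61.8% joined, 61.0% with the 1 kb distance and 64.9% without the regions. Joining made peaks wider by construction, with medians of 493 bp for kept peaks at 1 h and 174 bp at 2 h only, and summits 22 bp apart, against 496 bp when peaks within 1 kb were paired. Where the construction does not show it, the cause was not tested. With 1 pooled list per condition, the depth and the spread between replicates remain unknown.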
